A study of Mus musculus with 38 samples.

Results

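The clustered replication-dependent histone genes of the mouse were taken as the protein-coding genes of the GENCODE M21 basic annotation (mm10) whose symbol begins Hist1h, Hist2h, Hist3h or Hist4h. There were 67 such genes among 21951 protein-coding genes. The Hist1 group held 54 genes on chromosome 13, the Hist2 group 10 on chromosome 3, the Hist3 group 2 on chromosome 11 and the Hist4 group 1 on chromosome 6. By product, 6 genes encoded linker histone H1, 18 encoded H2A, 18 encoded H2B, 12 encoded H3 and 13 encoded H4. Their median length was 539 bp.

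Replication-dependent histone genes supply the histones that package newly copied DNA, and their transcription is tied to S phase. Their mRNAs end in a conserved stem-loop in place of a poly(A) tail. Many H2A and H2B genes stand head to head and share the short stretch between their starts. HSF1 and HSF2, the heat shock factors followed here, are transcription factors that bind inverted repeats of the unit GAA, called heat shock elements, and SOX2 is a pluripotency factor of embryonic stem cells.

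CUT&Tag, in which an antibody directs a transposase to the sites of a chromatin protein in unfixed cells, was done in JM8 mouse embryonic stem cells that were asynchronous (A) or mitotic (M), the latter after 50 ng/ml nocodazole for 6 h and shake-off. Endogenous HSF1, HSF2 and SOX2 were mapped in JM8 cells without a knockout. Halo-HSF2, the full-length protein with a HaloTag, was mapped in HSF2 KO JM8 cells with anti-HSF2, and an HA-tagged form of it in HSF2 KO JM8 cells with anti-HA, in separate libraries. Halo-H2DBD, the HSF2 DNA-binding domain with its nuclear localization signals, was mapped in HSF2 KO JM8 cells with anti-HA. The constructs were stably integrated and overexpressed. Each condition had 2 libraries, and each value below is the authors' mean over them, scaled by spiked-in Drosophila cells and averaged over an interval. The HSF1 and HSF2 intervals were called on the same A and M libraries whose signals are given, while the constructs took no part in the calling. With no value for a single library, no difference could be tested across libraries, no SD could be given, and the read depth behind each averaged value was not used here. The intervals in brackets after medians run over intervals of the averaged tracks and do not stand for replicates. Signals of the IgG and untransfected HA controls, and of anti-HSF2 in HSF2 KO cells without a construct, were not analysed at these intervals. Embryonic stem cell identity could not be checked with transcript markers, because only factor signals were used.

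An HSF1 interval lay within 1 kb of a transcript start at 48 of the 67 histone genes, which was 71.6% (Wilson 95% interval 59.9 to 81.0), against 4.53% of all coding genes. An HSF2 interval did so at 38 genes, or 56.7% (44.8 to 67.9), against 8.32% of all coding genes. Intervals of both factors were present at 33 histone genes, or 49.3%, against 3.13% of all coding genes. Of the rest, 15 genes had HSF1 alone, 5 had HSF2 alone and 14 had neither. Neighbouring genes share intervals, so these genes were not independent of each other, and the Wilson intervals are too narrow for that reason.

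**Figure D1:**
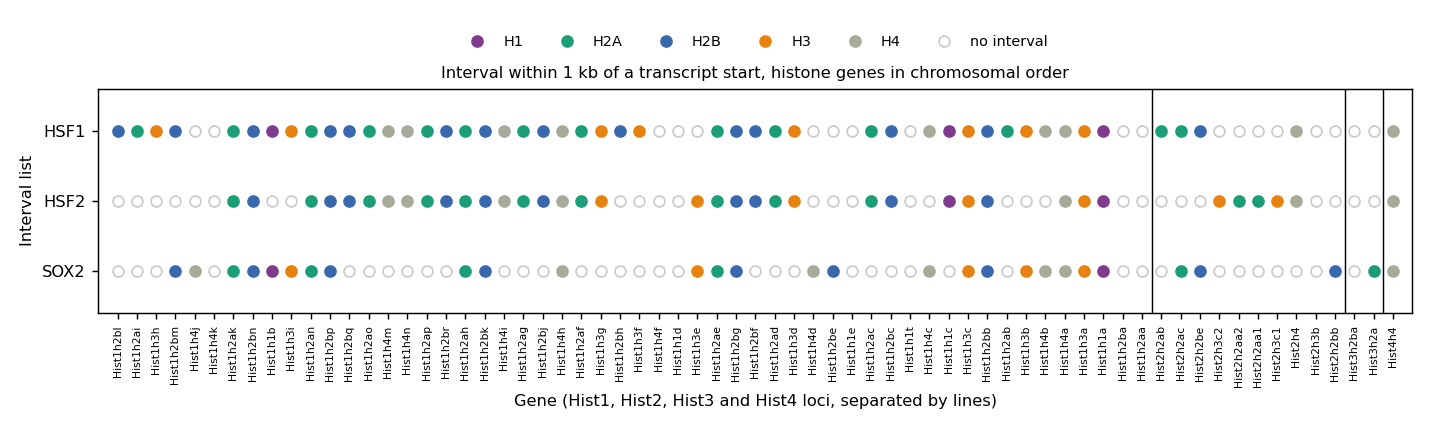
Each column is 1 of the 67 histone genes in chromosomal order and each row an interval list (HSF1, HSF2, SOX2). Filled circles, coloured by histone class, mark genes with an interval within 1 kb of a transcript start and open circles genes without one, and 14 genes have neither HSF1 nor HSF2.

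All 5 histone classes were represented. HSF1 intervals were at 3 of 6 genes for H1, the linker histone, 14 of 18 for H2A, 14 of 18 for H2B, 8 of 12 for H3 and 9 of 13 for H4. HSF2 intervals were at 2 of 6, 12 of 18, 10 of 18, 7 of 12 and 7 of 13 in the same order. The Wilson intervals of the classes overlapped each other for both factors. By locus, HSF1 was at 43 and HSF2 at 32 of the 54 Hist1 genes. In the Hist2 locus the factors were at different genes for the most part: HSF1 at 4 and HSF2 at 5 of 10, with only Hist2h4 in common. Hist4h4, the lone Hist4 gene, had both, and the Hist3 genes had neither.

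**Figure D2:**
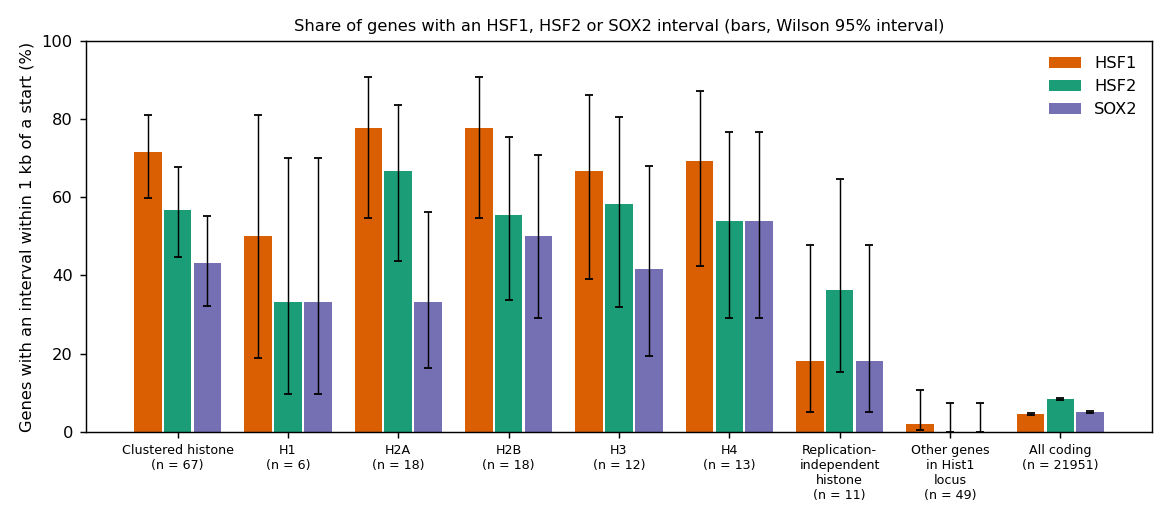
Bars give the percentage of genes with an HSF1, HSF2 or SOX2 interval within 1 kb of a start, with Wilson 95% intervals, for the histone genes, their 5 classes and 3 comparison groups. The 67 histone genes stand at 71.6%, 56.7% and 43.3%, and the 21951 coding genes at 4.53%, 8.32% and 4.99%.

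The genes with neither factor included Hist1h1t, the testis-specific H1, and the divergent pair Hist1h2ba and Hist1h2aa, testis-specific variants of H2B and H2A. That pair lies apart from the rest of the Hist1 cluster, 168754 bp and 169060 bp from the nearest HSF1 interval. The other 11 were Hist1h1d, Hist1h1e, Hist1h2be, Hist1h4d, Hist1h4f, Hist1h4j, Hist1h4k, Hist2h2bb, Hist2h3b, Hist3h2a and Hist3h2ba. Of the 14, 6 were within 5 kb of an HSF1 interval and 2 within 5 kb of an HSF2 interval. Among all coding genes, 5.47% and 9.35% were within 5 kb, but the 14 were picked for having no interval within 1 kb. The 5 genes with HSF2 alone were Hist1h3e and the neighbours Hist2h2aa1, Hist2h2aa2, Hist2h3c1 and Hist2h3c2.

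Between the outermost starts of the Hist1 genes lie 49 other coding genes, mostly vomeronasal receptors, which serve pheromone sensing. An HSF1 interval was at 1 of them, Zfp184, and an HSF2 or SOX2 interval at 0 of 49 (Wilson upper bound 7.27%). Of 11 replication-independent histone genes, which are expressed outside S phase as well, HSF1 was at 2, H2afj and H3f3a, or 18.2% (5.14 to 47.7). HSF2 was at 4, those 2 with H2afx and H2afz, or 36.4% (15.2 to 64.6). The shares over all coding genes were 4.53% and 8.32%. Of 22 genes for factors that act in histone gene expression, HSF1 was at 1, or 4.55%, near the 4.53% of all coding genes. HSF2 was at 5, or 22.7% (10.1 to 43.4), against 8.32%. These were Slbp, the stem-loop binding protein, Ccne1 and Ccne2, the E cyclins, Yy1 and Pou2f1, the octamer-binding factor Oct-1, which also had the HSF1 interval. The HSF2 signal at Slbp went from 1.26 in A to 5.43 in M, which is 2.11 on the log2 scale. At Pou2f1 it went from 2.30 to 6.91, or 1.59 on the log2 scale. The other log2 values, as deposited, were 1.03 at Ccne1, 0.61 at Yy1 and 0.12 at Ccne2. Over all HSF2 intervals, 30.1% had a log2 of M over A of 1 or more. Npat and Casp8ap2, which organise the histone locus body, had no interval of either factor.

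The loci held 13 divergent pairs of histone genes with starts at most 1000 bp apart. Of these, 12 had an HSF1 interval and 9 an HSF2 interval. By gene, that is 92.3% and 69.2%, against 58.5% and 48.8% of histone genes in no pair, and 4.53% and 8.32% of all coding genes. Both genes of a pair had or lacked an interval together, so they were not independent, and the difference was not tested. The stretch between the starts had a median of 267 bases and ran from 175 to 659. The sequences below were read from the RefSeq genome GRCm38.p6 (mm10), plus strand, 5′ to 3′, and each runs from the base after the start of the left gene, on the minus strand, to the base before the start of the right gene. The first 2 are shown because they hold the heat shock elements of the histone intervals, in capitals. They are the stretches chr13:23574197-23574380 and chr13:23683949-23684198.
Hist1h2bf/Hist1h2ad: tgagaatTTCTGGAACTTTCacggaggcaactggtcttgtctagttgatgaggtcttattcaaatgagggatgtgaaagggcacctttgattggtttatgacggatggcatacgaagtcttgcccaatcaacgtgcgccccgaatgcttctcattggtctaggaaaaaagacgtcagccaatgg
Hist1h2ac/Hist1h2bc: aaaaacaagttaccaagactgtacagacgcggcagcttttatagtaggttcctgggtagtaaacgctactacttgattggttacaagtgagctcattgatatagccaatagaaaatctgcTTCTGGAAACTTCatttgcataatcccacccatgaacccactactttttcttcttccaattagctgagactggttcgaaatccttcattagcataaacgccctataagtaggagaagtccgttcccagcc
The element was searched on both strands as 3 inverted units (GAA, any 2 bases, TTC, any 2 bases, GAA) and was found at chr13:23574204-23574216 as GAAAGTTCCAGAA and at chr13:23684069-23684081 as GAAGTTTCCAGAA, both on the minus strand. They lie 8 bp upstream of the Hist1h2bf start and 121 bp upstream of the Hist1h2ac start. These 2 elements were the only matches in the 24 HSF1 intervals at histone starts, so 2 of 24 held one against 16.0% of all HSF1 intervals. The same 2 loci were the only ones among the 17 HSF2 intervals at histone starts (11.8%), against 14.1% of all HSF2 intervals. At other coding starts, 12.8% of HSF1 intervals and 9.75% of HSF2 intervals held an element.

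The next 3 stretches show 3 promoter motifs in capitals, each on either strand: the CCAAT box (CCAAT) and TATA box (TATAAA), which most histone windows held, and the octamer ATTTGCAT, which a minority held. They are the pair with the highest HSF2 signal (chr13:21833508-21833742), a pair with all 3 factors (chr13:21753828-21754122) and a pair with HSF1 and SOX2 but no HSF2 (chr3:96220881-96221118).
Hist1h2ap/Hist1h2br: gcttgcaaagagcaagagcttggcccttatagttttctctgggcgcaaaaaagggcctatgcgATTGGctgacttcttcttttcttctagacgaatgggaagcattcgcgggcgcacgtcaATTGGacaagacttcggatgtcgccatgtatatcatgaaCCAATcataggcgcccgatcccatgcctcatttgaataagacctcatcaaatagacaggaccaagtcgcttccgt
Hist1h2ak/Hist1h2bn: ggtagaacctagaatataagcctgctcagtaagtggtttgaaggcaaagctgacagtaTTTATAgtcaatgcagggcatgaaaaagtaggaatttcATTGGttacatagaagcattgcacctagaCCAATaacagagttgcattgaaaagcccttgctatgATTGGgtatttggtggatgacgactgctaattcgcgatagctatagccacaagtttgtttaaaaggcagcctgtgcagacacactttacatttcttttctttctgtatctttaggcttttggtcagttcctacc
Hist2h2ac/Hist2h2be: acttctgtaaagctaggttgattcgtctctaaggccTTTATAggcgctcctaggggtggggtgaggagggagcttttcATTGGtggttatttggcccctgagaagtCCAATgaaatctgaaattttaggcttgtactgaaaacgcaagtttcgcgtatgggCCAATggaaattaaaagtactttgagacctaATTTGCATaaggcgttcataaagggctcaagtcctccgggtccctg
RefSeq promoter windows on GRCm38.p6, from 250 bases before to 50 after a gene's start, were matched for 62 of the 67 genes by symbol. CCAAT was in 53 of the 62 windows (85.5%) against 41.1% of 27025 windows, and TATAAA in 35 (56.5%) against 15.7%. All windows of H1, H2A, H2B and H3 genes held CCAAT, while 3 of 12 H4 windows did. The octamer was in 14 windows (22.6%) against 1.97%, in 7 of 18 for H2A and 7 of 16 for H2B and in none of the other classes. Divergent genes share bases, so both windows of a pair can hold the same match. The heat shock element was in 3 windows (4.84%) against 0.662%, and all 3 belonged to genes with HSF1 and HSF2 intervals. In the Hist1h2ac/Hist1h2bc stretch the octamer followed the heat shock element without overlap. A SOX motif, AACAATG, was in 0 of 62 windows against 4.33%. These are matches of letters and not measured sites.

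Most histone genes with an interval were covered along their whole length. There were 24 HSF1 intervals at histone starts among 1726 in all and 17 HSF2 intervals among 2135. Their median width was 3012.5 bp for HSF1 and 2785 bp for HSF2, against 1938.5 and 2395 bp over the whole lists. The HSF1 intervals covered the whole gene at 39 of the 48 genes and the HSF2 intervals at 27 of 38. Among other coding genes with an interval, 21 of 946 and 55 of 1789 were covered whole. Median coverage was 100% at the histone genes for both factors, and 4.39% and 5.68% at the others. The median histone gene length, 539 bp, was below the narrowest of these intervals, 1601 bp for HSF1 and 1427 bp for HSF2. Whether the coverage reflects more than gene length was not tested. At least 2 coding genes had a start at 15 of the 24 HSF1 intervals (62.5%, against 8.69% of all) and at 13 of the 17 HSF2 intervals (76.5%, against 12.2%). The lists include intervals away from coding starts, and at intervals of other coding starts the shares were 16.7% for HSF1 and 16.1% for HSF2. The widest HSF1 interval, 6490 bp at chr13:23570275-23576764, held the starts of Hist1h2ad, Hist1h2ae, Hist1h2bf, Hist1h2bg and Hist1h3d. GC content was lower than in the lists, with medians of 47.5% against 51.7% for HSF1 and 49.1% against 55.1% for HSF2.

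In asynchronous cells the HSF1 signal at the histone intervals had a median of 8.90 (3.79 to 14.4), against 6.21 over all HSF1 intervals, and 21 of 24 were above that median. In mitotic cells it had a median of 6.44 (3.18 to 10.6), against 4.07. In this table of scores, M was lower than A at 22 of 24 intervals, where 91.9% of all HSF1 intervals were lower, with a median log2 M/A of −0.51 (−0.63 to −0.29) against −0.62. Centred on the quartile of intervals with the weakest signal, which itself had a median of −0.59, the histone median turned to 0.084. The list median was then −0.028, and the direction at the histone intervals depends on the scaling. In this table the histone median was 0.11 above that of the list, 17 of 24 intervals were above it, and 1 of 24 had a log2 M/A of −1 or less, against 17.7% of all. A second deposited set of HSF1 means, carried by the interval list, gave other values. There the histone medians were 11.4 in A and 0.842 in M, and the median log2 M/A was −3.57 against −2.41 over the list. All 24 histone intervals were then lower in M, below the list median and at −1 or less, where 92.0% of the list was at −1 or less. Which of the sets carries the intended scaling is not given in the sources used here, so the place of the histone intervals within the HSF1 list in mitosis depends on it, and all HSF1 values below are from the score table.

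The highest HSF1 signals were at groups of H2A, H2B, H3, H4 and H1 genes, and log2 in brackets stands for the log2 of M over A. The interval of Hist1h2ao, Hist1h2bq and Hist1h4m (chr13:21809335-21812823) had 14.4 in A and 9.98 in M (log2 −0.53). That of Hist1h2ap, Hist1h2br and Hist1h4n (chr13:21831277-21835100) had 12.9 in A and 10.6 in M (log2 −0.29). The interval near the starts of Hist1h1a, Hist1h3a and Hist1h4a (chr13:23759556-23763295) had 13.5 in A and 8.68 in M (log2 −0.63). The first 2 are near-identical copies of each other: 95.9% and 95.8% of their 50-mers recurred elsewhere within the histone loci, and 235 of 267 aligned columns were identical between their stretches from H2A to H2B start. The authors applied no filter to mapped reads, so how reads were divided between such copies is uncertain.

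The highest HSF1 ratios were at 2 H2A/H2B pairs and at Hist4h4. Hist1h2an/Hist1h2bp had 9.32 in A and 9.83 in M (log2 0.08) and Hist1h2ak/Hist1h2bn had 8.32 and 8.40 (log2 0.01). Hist4h4 had 3.79 in A and 3.45 in M (log2 −0.13). The lowest ratios were at single H3 and H4 genes. Hist1h3i had 9.57 in A and 3.89 in M (log2 −1.30). Hist1h4c had 7.21 and 3.65 (log2 −0.98), and Hist1h4b had 6.99 and 4.13 (log2 −0.76). None of these 3 had an HSF2 interval. An HSF2 interval overlapped 14 of the 24 HSF1 intervals at histone starts and 51.2% of all HSF1 intervals.

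**Figure D3:**
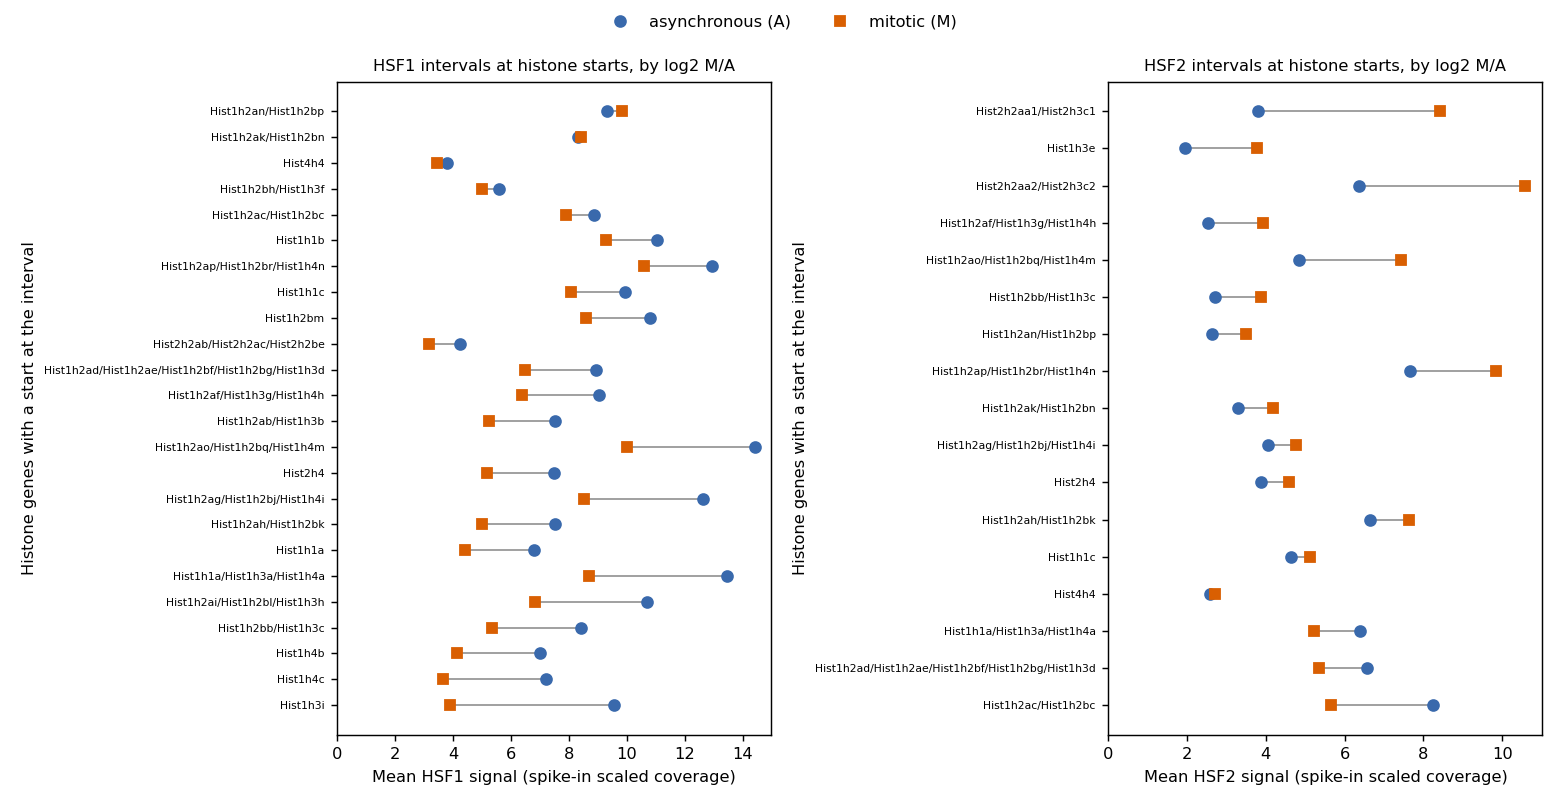
Mean signal of the averaged tracks in asynchronous (circles) and mitotic cells (squares) at the 24 HSF1 intervals (left) and 17 HSF2 intervals (right) with histone starts within 1 kb, ordered by log2 M/A. On the left 22 intervals are lower in M, and on the right 14 are higher in M, as given in the deposited score tables.

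The HSF2 signal at the histone intervals was not high within its list. In A its median was 4.04 (1.94 to 8.25) against 4.14 over all HSF2 intervals, with 8 of 17 above that median, and in M it was 5.11 (2.71 to 10.6) against 5.85. As deposited, M was higher at 14 of 17 intervals, where 72.3% of all were higher, with a median log2 M/A of 0.34 (0.14 to 0.62) against 0.49. Centring on the weakest quartile, with its own median of 0.71, turned the histone median to −0.36 and that of the whole list to −0.21. A log2 M/A of 1 or more was seen at 1 of 17 intervals against 30.1% of all.

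The highest HSF2 signals were at 3 H2A-containing intervals. Hist1h2ap/Hist1h2br/Hist1h4n had 7.65 in A and 9.84 in M (log2 0.36). Hist2h2aa2/Hist2h3c2 (chr3:96238227-96241011) had 6.36 in A and 10.6 in M (log2 0.74). Hist1h2ah/Hist1h2bk had 6.64 in A and 7.62 in M (log2 0.20). The largest ratios were in the Hist2 locus and at one H3 gene: Hist2h2aa1/Hist2h3c1 (chr3:96244483-96247604) had 3.80 in A and 8.42 in M (log2 1.15) and Hist1h3e had 1.94 and 3.78 (log2 0.96), followed by Hist2h2aa2/Hist2h3c2. These 3 intervals were also the 3 without an HSF1 overlap, which 40.7% of all HSF2 intervals had. Over the whole list, too, the HSF2 median log2 M/A was lower at the 888 overlapping pairs (0.34) than over all intervals (0.49). The 3 intervals contain repeated sequence as well, since 61.2%, 51.7% and 68.7% of their 50-mers recurred within the histone loci.

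HSF2 was lower in M at 3 of 17 intervals, as deposited, where 27.7% of all were lower. Hist1h2ac/Hist1h2bc had 8.25 in A, the highest A value of the 17, and 5.64 in M (log2 −0.55). Hist1h2ad/Hist1h2ae/Hist1h2bf/Hist1h2bg/Hist1h3d had 6.58 and 5.35 (log2 −0.30). Hist1h1a/Hist1h3a/Hist1h4a had 6.40 and 5.23 (log2 −0.29). The first 2 were the intervals that held the heat shock elements printed above, and the 15 histone intervals without an element had a median of 0.36. Over the whole HSF2 list the median log2 M/A was 0.004 for 300 intervals with an element and 0.59 for 1831 without. The other signals did not share this order at the 2 histone intervals. Medians with and without an element were 0.73 and 0.38 for Halo-HSF2 by anti-HSF2 and −0.32 and −0.53 for HSF1. They were −0.06 and −0.07 for Halo-HSF2 by anti-HA, while Halo-H2DBD was lower with an element (−0.30 and −0.21). Over the whole HSF1 list they were −0.60 and −0.62.

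An interval of the other factor overlapped 14 of the 24 HSF1 intervals (58.3%, against 51.2% of all) and 14 of the 17 HSF2 intervals (82.4%, against 40.7%), giving 14 pairs to set side by side. At intervals of other coding starts the overlapping shares were 68.4% for HSF1 and 36.5% for HSF2, so the HSF1 share was below that class. As deposited in the score tables, HSF2 had the higher log2 M/A at 13 of 14, against 87.2% of 888 overlapping pairs, with a median difference of 0.54 (range −0.38 to 1.16) against 0.96. With each factor centred on its weakest quartile, every difference was 1.30 lower and HSF2 was higher at 0 of 14, against 35.9% of all, so the direction depends on the scaling. The exception was Hist1h2ac/Hist1h2bc, with −0.17 for HSF1 and −0.55 for HSF2. Without centring, HSF1 was lower and HSF2 higher in M at 9 of 14 pairs, against 65.0% of all. Of the other 5 pairs, 3 were lower for both factors and 2 higher for both, the last being Hist1h2ak/Hist1h2bn and Hist1h2an/Hist1h2bp.

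The overexpressed constructs were measured at the intervals called for endogenous HSF2. Halo-HSF2 by anti-HSF2 had a median of 1.55 in A (0.505 to 2.71) and 1.88 in M (1.02 to 5.58), against 1.58 and 2.44 over all intervals. As deposited it was higher in M at 15 of 17 histone intervals, where 79.7% of all were higher, with a median log2 M/A of 0.38 (0.19 to 0.60) against 0.64. Centred on the weakest quartile, with a median of 0.53, the histone median was −0.15 and that of all intervals 0.11. The ends of the range were both H2A/H2B pairs: Hist1h2an/Hist1h2bp had 0.505 in A and 1.45 in M (log2 1.52) and Hist1h2ah/Hist1h2bk had 2.69 and 1.19 (log2 −1.17).

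HA-tagged Halo-HSF2 read by anti-HA was lower in M at most of these intervals as deposited, but with a median log2 M/A of only −0.06. Its construct and antibody both differ from those of the anti-HSF2 track, and their parts cannot be told apart. Its A signal had a median of 2.24 (1.15 to 4.25) against 1.36, with 15 of 17 above the list median, and its M signal had a median of 2.15 (0.948 to 4.04) against 2.02. M was lower than A at 13 of 17 intervals, where 13.7% of all HSF2 intervals were lower. The median log2 M/A was −0.06 (−0.26 to −0.02) against 0.57 over all intervals. Centred on the weakest quartile, whose median was 0.69, it was −0.75 against −0.13. All 17 histone intervals were below the list median and 16 were below its first quartile. At the 1539 intervals of other coding starts the median was 0.57 and M was lower at 10.9%. At the 1139 other intervals with A values within the range of the histone intervals, a selection made after seeing the data, the median was 0.44 and M was lower at 15.5%. The extremes were Hist1h2bb/Hist1h3c, with 1.16 in A and 1.43 in M (log2 0.31), and Hist1h2ap/Hist1h2br/Hist1h4n, with 3.57 and 2.78 (log2 −0.36).

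Halo-H2DBD was also high at the histone intervals in A, with a median of 2.48 (1.62 to 4.87) against 1.64 and 16 of 17 above the list median. In M its median was 2.07 (1.08 to 3.84) against 1.82. M was lower at 12 of 17, where 41.4% of all were lower, with a median log2 M/A of −0.21 (−0.70 to 0.07) against 0.10, and of −0.35 over the 7 intervals with under 20% repeated 50-mers. Centring changed this little, since the weakest quartile had a median of 0.0027. The 3 Hist2 intervals were all higher in M and 11 of the 13 Hist1 intervals were lower. Hist2h2aa1/Hist2h3c1 had 2.54 in A and 3.17 in M (log2 0.32), and Hist1h3e had 4.37 and 1.95 (log2 −1.16). Hist1h1a/Hist1h3a/Hist1h4a had the highest A value, 4.87, and 2.49 in M. Whether the log2 M/A of the DNA-binding domain differs from that of full-length Halo-HSF2 was not tested.

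**Figure D4:**
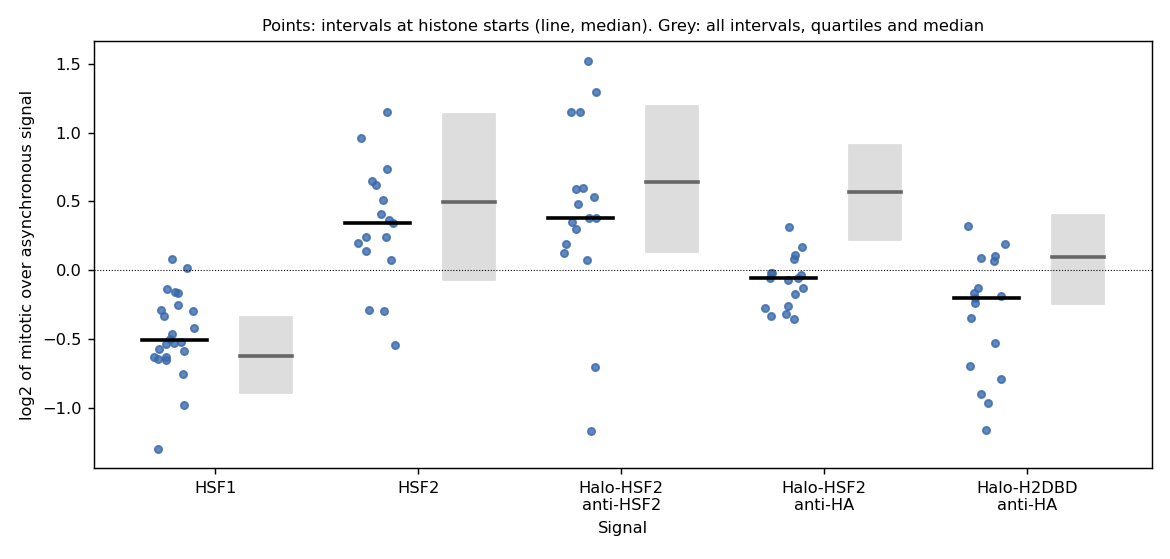
Log2 M/A of each signal: points are intervals at histone starts (24 for HSF1, 17 for the others) with their median as a black line, and grey boxes span the quartiles of all intervals, with the median. For Halo-HSF2 read by anti-HA, the histone median is −0.06 and the median of all intervals 0.57.

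The intervals described in full had these construct values. At Hist2h2aa2/Hist2h3c2, Halo-HSF2 had 2.28 in A and 5.58 in M by anti-HSF2 but 3.05 and 2.79 by anti-HA, and Halo-H2DBD had 3.59 and 3.84. At Hist2h2aa1/Hist2h3c1, Halo-HSF2 had 2.24 and 4.96 by anti-HSF2 and 2.44 and 2.63 by anti-HA. At Hist1h2ap/Hist1h2br/Hist1h4n, it had 2.71 and 3.78 by anti-HSF2, and Halo-H2DBD had 3.71 and 3.21. These 3 intervals were higher in M by anti-HSF2, and anti-HA was lower in M at 2 of them. At Hist1h2ac/Hist1h2bc, where endogenous HSF2 was lower in M, Halo-HSF2 had 1.22 and 2.70 by anti-HSF2 and 2.24 and 2.15 by anti-HA, and Halo-H2DBD had 1.82 and 2.07. At Hist1h3e, Halo-HSF2 had 2.38 and 1.46 by anti-HSF2 and 3.79 and 3.73 by anti-HA. Hist1h3e was lower in M in all 3 construct signals, while endogenous HSF2 was higher there. At Hist1h1a/Hist1h3a/Hist1h4a, Halo-HSF2 had 2.10 and 2.67 by anti-HSF2 and 4.25 and 4.04 by anti-HA, the highest values of the 17 for anti-HA. At Hist1h2ad/Hist1h2ae/Hist1h2bf/Hist1h2bg/Hist1h3d, it had 1.85 and 2.28 by anti-HSF2 and 1.91 and 1.83 by anti-HA, and Halo-H2DBD had 1.92 and 1.11. Both intervals were higher in M by anti-HSF2 alone. At Hist1h2ah/Hist1h2bk, Halo-HSF2 had 2.41 and 2.54 by anti-HA and Halo-H2DBD had 2.68 and 2.35. At Hist1h2an/Hist1h2bp, endogenous HSF2 had 2.62 and 3.49, Halo-HSF2 by anti-HA 1.78 and 1.75, and Halo-H2DBD 1.98 and 1.22. At Hist1h2bb/Hist1h3c, endogenous HSF2 had 2.72 and 3.87, Halo-HSF2 by anti-HSF2 0.878 and 1.14, and Halo-H2DBD 1.62 and 1.38. In these last 3 intervals Halo-H2DBD was lower in M throughout.

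The DNA-binding domain and the full-length protein were compared directly with anti-HA. The log2 of Halo-H2DBD over Halo-HSF2 had a median of 0.16 in A (0.05 to 0.20), against 0.29 over all intervals, and of −0.05 in M (−0.52 to 0.21), against −0.18. In A, Halo-H2DBD was higher at 14 of 17 intervals against 77.4% of all, and in M at 7 of 17 against 32.8%. The largest excess of Halo-H2DBD was at Hist4h4 in A, with 2.02 for the domain and 1.15 for the full-length protein. These were separate tracks of cells with different constructs, and the level of each protein was not measured here.

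SOX2 sites, taken from an earlier list, were within 1 kb of a start at 29 of the 67 histone genes, or 43.3% (32.1 to 55.2), against 4.99% of all coding genes. A SOX2 site lay under 15 of the 24 HSF1 intervals (62.5%, against 32.7% of all) and 9 of the 17 HSF2 intervals (52.9%, against 19.1%). Of the 14 genes with neither heat shock factor, 5 had a SOX2 site, so 9 genes had none of the 3. The 22 SOX2 intervals had a median signal of 37.2 in A (9.15 to 179.7), against 8.74 over all 15081, and all 22 were above that median. M was higher at 9 of 22, where 63.4% of all with a ratio were higher, with a median log2 M/A of −0.11 (−0.61 to 0.17) against 0.34. The strongest was at Hist1h2bm, an H2B gene, with 179.7 in A and 201.8 in M.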

How the data were processed

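CUT&Tag libraries (38, 2 for each of 19 conditions) of mouse embryonic stem cells were mapped by the authors with Bowtie2 2.4.2 to mm10, with inserts of 10 to 2000 bp, PCR duplicates kept and no filter on mapped reads. The deposited values are signal: coverage scaled by the authors to the reads of spiked-in Drosophila cells (dm6), averaged over each interval and over the 2 libraries. HSF1 and HSF2 intervals were called by the authors against IgG in A and M and combined. The HSF1 and HSF2 interval lists also hold means, used only as an alternative chosen after seeing the data. The plain SOX2 interval list was not used. The submitters' processing notes name FastQC, Bowtie2, deepTools and bedtools. Columns for 12 conditions were used.

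An interval was assigned to a gene within 1 kb of any of its transcript starts. Of 2141 HSF2 rows, 6 repeated an interval and were dropped. Log2 M/A was taken without a pseudocount. Shares have Wilson 95% intervals and medians order-statistic 95% intervals, which cover neither library error nor the sharing of intervals by genes. Scripts (Python 3.11.15, pandas 2.3.3, numpy 2.4.6, scipy 1.17.1, matplotlib 3.10.9) were tested on simulated data. No test across libraries was possible. The named intervals were, for HSF1 and HSF2, the 3 highest in mean of A and M, the 3 largest and the 3 smallest in log2 M/A, and for each construct signal the largest and smallest log2 M/A. The members, gene lists and comparisons were chosen with earlier results of these data known. Hist4h4 in the construct comparison, the strongest SOX2 gene, the factor genes given with A and M values and the intervals set beside the heat shock elements were chosen after their values were seen.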

Additional observations from a re-analysis of the deposited data

How the results depend on the processing

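No paired analysis was possible because the columns are the authors' means and carry no replicate numbers, and for the same reason leaving out each replicate was not run. Of 68 values, 56 were medians of the same sign within the 95% interval of the reported one, or counts within 1.5 times. Some of these medians could not differ, since requiring a start inside the interval kept all 24 HSF1 and 17 HSF2 intervals. Requiring a mean of A and M of at least 1 also kept them all, except for Halo-HSF2 by anti-HSF2. Centring on the quartile of intervals with the weakest signal reversed the median log2 M/A of HSF1 (−0.51 to 0.084), HSF2 (0.34 to −0.36) and Halo-HSF2 by anti-HSF2 (0.38 to −0.15), and moved that of Halo-HSF2 by anti-HA (−0.06 to −0.75). By construction, these medians and those of the whole lists shift by the same amount. The means carried by the HSF1 interval list gave −3.57 (−2.41 over the list) where the score table gave −0.51 (−0.62), which turned the order of the histone intervals and the list, and the cause was not tested. Over intervals with under 20% of 50-mers repeated (16 for HSF1, 7 for the others), medians were −0.58 for HSF1, 0.24 for HSF2, 0.38 and −0.07 for Halo-HSF2 by anti-HSF2 and anti-HA, and −0.35 for Halo-H2DBD. Keeping only HSF2 intervals at or above the median signal left 22 histone genes of 38, with 3.80% of all coding genes. The heat shock element count of 2 rose to 17 HSF1 and 12 HSF2 intervals with 2 units, and to 15 and 8 with 1 mismatch, and was 1 and 1 without intervals wider than 5 kb.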
